A study of Mus musculus with 15 samples.

Results

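The cytosolic ribosomal protein genes code for the protein parts of the large (Rpl symbols) and small (Rps symbols) ribosomal subunits. Members were taken by symbol: Rpl or Rps followed by a digit, with Rplp0, Rplp1, Rplp2 and Rpsa, and without symbols containing -ps and the Rps6k kinases. This gave 91 of the 29659 symbols in the deposited values, 54 for the large and 37 for the small subunit. The rule used no expression value. It dropped 163 -ps symbols and 10 Rps6k symbols. It also admitted Rps19bp1, a gene named for binding Rps19 that does not code for a ribosomal protein, and 5 genes that GENCODE M21 annotates as processed pseudogenes (Rpl37rt, Rps4l, Rpl6l, Rps3a2 and Rps3a3).

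Polyadenylated RNA of the thalamus was sequenced from 15 mice aged 4.5 months, and a sample is 1 library. All groups carry the human APOE4 knock-in in both copies (APOE4+/+). 5EL mice (n = 5) also carry the 5xFAD amyloid transgenes with intact Lilrb4a, and 5ELKO mice (n = 4) carry 5xFAD and lack Lilrb4a, which codes for an inhibitory receptor of myeloid cells. EL mice (n = 3) have intact Lilrb4a and no 5xFAD, and ELKO mice (n = 3) lack Lilrb4a and have no 5xFAD. The knockout line is from a single supplier and is constitutive, so that Lilrb4a is missing from every cell, whereas 5xFAD transgenes are driven by the neuronal Thy1 promoter. The labels give no sex. By a general statement of the study, work not split by sex in its figures was done on males. No label says whether libraries of a group came from separate litters or runs.

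Values are log2 expression values as deposited, with no counts behind them, so the depth of a single value is unknown. The depth of the libraries themselves is not given by such values either, since they are scaled between libraries. Lilrb4a lay between 2.326 and 2.331 in the 7 libraries labelled as deleted and between 2.34 and 2.66 in the other 8. ELKO replicate 1 had mouse Apoe at 10.9, whereas the other 14 libraries lay between 5.92 and 6.37, which goes against its APOE4+/+ label. 5EL replicate 1 and ELKO replicate 2 stood apart in choroid plexus genes, with mean list levels of 8.75 and 9.12 against 6.48 to 7.02 elsewhere. All 10 thalamic neuron genes of a fixed list were present, at mean levels from 9.03 to 13.8. The 3 libraries 5EL replicate 3, EL replicate 3 and ELKO replicate 3 stood apart in the ribosomal protein genes themselves. Each genotype comparison of the members is therefore given with and without them. The study's supplement lists reads and quality values for 5EL and 5ELKO libraries alone. There, the 5EL library numbered 3 had the lowest RNA integrity number of 5EL. It also had the lowest unique mapping rate of all libraries listed. How these values relate to the members' levels across libraries was not tested.

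Ribosomal proteins are made in matched amounts in all cells, because each ribosome holds a single copy of nearly every one of them. Their mRNAs are short and abundant, and in vertebrates they begin with a terminal oligopyrimidine (TOP) tract, a C followed by further C and T bases. Through this tract, the growth-regulating kinase mTORC1 and the binding protein Larp1 control their translation together. Transcription of these genes is also coordinated, and their promoters mostly lack a strong TATA box.

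The start regions below show the tract in the 3 members with a promoter entry that rose and fell most closely with the other members across libraries and had a tract within 10 bases of the start. They also show the 3 members with an entry that followed the others least. Sequences are from RefSeq promoter entries on GRCm38.p6, printed on the gene's strand, with 70 bases before and 20 from the annotated start. Capitals mark the longest run of a C followed by at least 4 pyrimidines that begins near the start.
Rps6 (chr4:86857348-86857437, minus strand): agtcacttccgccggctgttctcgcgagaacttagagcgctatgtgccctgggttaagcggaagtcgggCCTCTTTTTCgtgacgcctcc
Rps18 (chr17:33955646-33955735, minus strand): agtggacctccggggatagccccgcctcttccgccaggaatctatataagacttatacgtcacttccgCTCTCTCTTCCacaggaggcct
Rps10 (chr17:27635225-27635314, minus strand): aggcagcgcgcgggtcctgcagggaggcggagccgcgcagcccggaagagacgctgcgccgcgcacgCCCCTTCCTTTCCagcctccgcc
Rpl37rt (chr5:115110249-115110338, minus strand): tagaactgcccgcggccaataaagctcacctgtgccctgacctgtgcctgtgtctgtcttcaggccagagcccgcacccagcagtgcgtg
Rpl24 (chr16:55966205-55966294, plus strand): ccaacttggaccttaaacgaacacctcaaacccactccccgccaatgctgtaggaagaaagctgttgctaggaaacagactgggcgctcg
Rpl7l1 (chr17:46782637-46782726, minus strand): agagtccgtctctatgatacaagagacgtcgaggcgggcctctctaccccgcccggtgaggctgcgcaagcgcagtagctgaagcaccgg

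Runs of 10, 11 and 13 pyrimidines spanned the start of Rps6, Rps18 and Rps10. No run of this kind began near the start of Rpl37rt, Rpl24 or Rpl7l1. Rps6, Rps18 and Rps10 were shown because they had a tract, and the others were chosen without regard to it. The difference between them therefore follows from the choice and says nothing of how tract and tracking relate. The table of promoters held 74 entries for 63 of the 84 tested members. Of these entries, 51.4% had a C followed by 4 pyrimidines within 10 bases of the start, compared with 29.7% of all 32851 promoters. The same letters began exactly at the first base in 17.6% of the members' promoters and in 2.51% of all promoters. The tract was searched on the gene's strand alone. The other motifs were searched on both strands over the 300 bases of each entry. The core CCGGAA, bound by ETS factors, was in 47.3% of the members' promoters and in 14.9% of all promoters. The SP1 GC box GGGCGG was in 62.2% against 35.7%, and the YY1 core GATGGC was in 25.7% against 14.1%. The TATA letters TATAAA were in 9.46% against 13.6%. These matches are letters in a window, and binding was not measured.

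Most members were among the highest mRNAs of the thalamus. A gene was tested where it reached a linear value of 10 (log2 of 3.32) in 4 of the 9 libraries of 5EL and 5ELKO or in 3 of all 15, for fits on those libraries, which 84 of the 91 members did, 50 of the large and 34 of the small subunit. The median tested member had a level of 11.33, and 72 of the 84 were at 10 or above. Levels between genes were compared per kilobase of mRNA, because a longer mRNA yields more fragments. On that log2 scale, 76 members lay between 10.34 and 13.22 with a median of 11.79, and the other 8 lay lower. The median over the 15289 tested genes with a known length was 7.05 and their 95th percentile was 10.69, a level that 72 members exceeded. The 5 highest members per kilobase were Rplp1 (13.22), an acidic protein of the stalk that recruits elongation factors, Rps15 (12.80), Rpl3 (12.76), which lies near the peptidyl transferase centre, Rps14 (12.68) and Rpl26 (12.66). The 5 lowest were Rps19bp1 (8.37), Rps27l (8.33), Rps4l (8.27), Rpl37rt (4.71) and Rpl24 (4.02).

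Rpl24 is uncertain. In GENCODE M21, 71.5% of its mRNA lies within exons of another gene, Gm28037, and 80.1% of its 100-base words occur in other genes. Read pairs that fall on more than 1 gene are left out by the default counting. Rps20 (8.89) and Rps15a (8.79) were low per kilobase, with annotated transcripts of 3706 and 5130 bases, while their levels were 10.78 and 11.14. For 9 of the 91 members over 20% of the mRNA overlapped another gene's exons, and counting took no account of strand. For 38 members over 50% of the 100-base words were shared with other genes, and for 10 members none were. The values of the sharing members are uncertain as absolute levels.

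**Figure D1:**
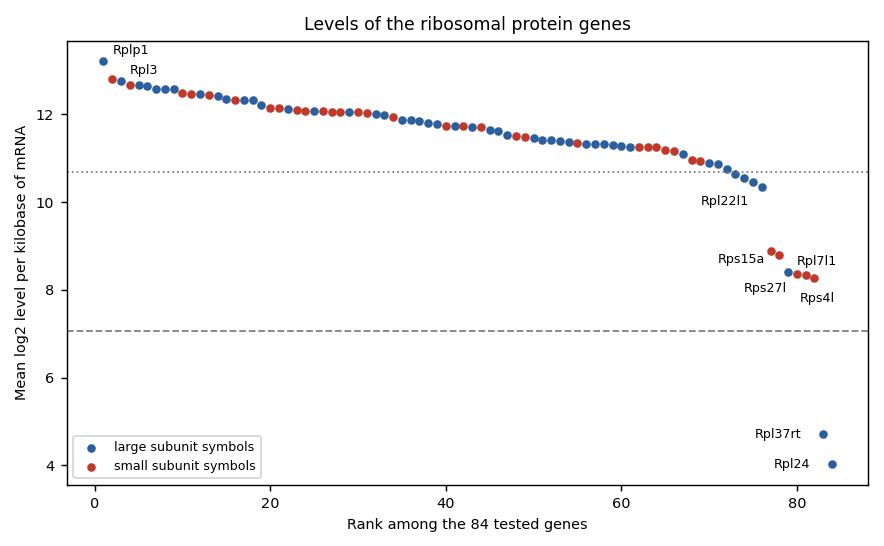
Mean log2 level per kilobase of mRNA over 15 libraries (vertical axis) against rank (horizontal axis) for the 84 tested genes, with large subunit symbols in blue and small subunit symbols in red. The dashed line is the median (7.05) and the dotted line the 95th percentile (10.69) of all tested genes; 76 members form a continuous series from 13.22 down to 10.34, and 8 lie apart below it.

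Paralogs with a restricted pattern of expression were near the floor of the scale. Rpl10l and Rpl39l, which are known from testis, lay at 1.21 to 1.39 and at 1.35 to 1.47 over the 15 libraries and were not tested. Rpl3l, known from striated muscle, had a mean level of 2.40, and the other untested members were Rps3a2 (1.54), Rpl6l (2.23), Rps3a3 (2.68) and Rps27rt (2.86). Their main copies Rpl10 (11.90), Rpl39 (9.85), Rpl3 (13.20) and Rps3a1 (12.43) were abundant. On this scale low values are drawn together, so a difference between genes at the floor has no meaning. Among paralogs that were tested, Rpl36al was close to Rpl36a, with a log2 difference per kilobase of -0.26 ± 0.08 (SD over 15 libraries), although 63.1% of the Rpl36al mRNA overlaps another gene. Rpl22l1, the paralog of the RNA-binding protein Rpl22, lay at -1.30 ± 0.11 (SD, n = 15) relative to Rpl22. Rps27l, a paralog of Rps27 induced by p53, lay at -3.38 ± 0.17 (SD, n = 15), Rpl7l1 at -3.34 ± 0.13 (SD, n = 15) relative to Rpl7, and Rps4l at -3.87 ± 0.17 (SD, n = 15) relative to the X-linked Rps4x. The Rpl22l1 difference was -1.32 ± 0.09 in 5EL (SD, n = 5), -1.35 ± 0.05 in 5ELKO (SD, n = 4), -1.22 ± 0.13 in EL (SD, n = 3) and -1.29 ± 0.18 in ELKO (SD, n = 3). The lowest of these means was in 5ELKO and the highest in EL, and differences between them were not tested.

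The members moved together from library to library. Rps6, the substrate of the S6 kinases, followed the mean of the other members most closely after group means were removed (r = 0.992 over 15 libraries), and Rpl11 (0.992), which with Rpl5 and 5S RNA can bind Mdm2, and Rps18 (0.992) came next. These correlations share the libraries and their scaling and are given as descriptions. On GRCm38, GENCODE M21 places Rps6 at chr4:86854660-86857412 and Rpl11 at chr4:136028265-136053428, both on the minus strand and protein coding. In the 5EL libraries Rps6 was at 12.22, 12.29, 12.49, 12.29 and 12.18. In 5ELKO it was at 12.27, 12.13, 12.25 and 12.35. In EL it was at 12.25, 12.24 and 12.55, and in ELKO at 12.16, 12.27 and 12.61. Replicate 3 was thus the highest library of 5EL, EL and ELKO, and the 4 groups overlapped. Rpl11 was at 11.60, 11.72, 11.96, 11.71 and 11.57 in 5EL, and at 11.72, 11.55, 11.66 and 11.77 in 5ELKO. It was at 11.66, 11.61 and 12.05 in EL, and at 11.54, 11.65 and 12.14 in ELKO. The same libraries were high, with the largest distance in ELKO. Among all 84 members, 74 had a correlation above 0.9 with the mean of the others and 4 had one below 0.8 (Rps4l 0.25, Rpl7l1 0.53, Rpl24 0.59 and Rpl37rt 0.79). The first principal component of the members held 89.9% of their variance, and 91.1% once group means were removed. The correlations and the component take in replicate 3 of 5EL, EL and ELKO, which stood apart, and neither was computed without these libraries.

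A deviation is the log2 value of a gene minus its mean over the 15 libraries. The median deviation of the members was 0.372 in ELKO replicate 3, 0.311 in EL replicate 3 and 0.197 in 5EL replicate 3. It was 0.074 in 5ELKO replicate 4 and between -0.163 (5ELKO replicate 2) and -0.013 (5EL replicate 4) in the other 11 libraries. The median deviation of all 15804 tested genes stayed between -0.007 and -0.001. In each of the first 3 libraries 83 of the 84 members were above their own mean. ELKO replicate 3 was the highest library for 60 members, EL replicate 3 for 20 and 5EL replicate 3 for 4. Both subunits moved alike: in ELKO replicate 3 the median was 0.360 for large and 0.380 for small subunit members, and in EL replicate 3 it was 0.311 and 0.305. The 91 members held from 1.13% (5ELKO replicate 2) to 1.62% (ELKO replicate 3) of the summed linear values. In bulk tissue, a change in the number of cells of a type and a change in RNA per cell cannot be told apart.

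**Figure D2:**
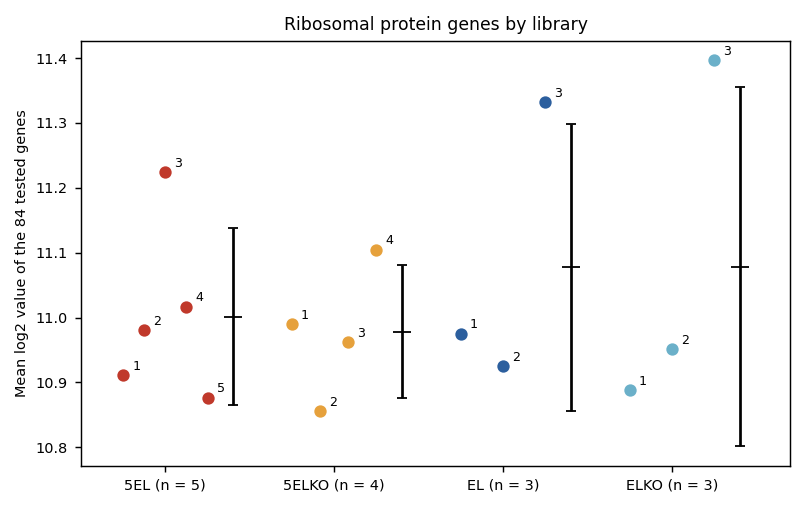
Mean log2 value of the 84 tested genes (vertical axis) in each library by group (horizontal axis), with the replicate number beside each point and the group mean ± SD as a bar. Replicate 3 lies above the rest of its group in 5EL (11.22), EL (11.33) and ELKO (11.40), and the 4 groups overlap.

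By group, the mean log2 value of the 84 members was 11.002 ± 0.136 in 5EL (SD, n = 5), 10.978 ± 0.102 in 5ELKO (SD, n = 4), 11.077 ± 0.221 in EL (SD, n = 3) and 11.079 ± 0.277 in ELKO (SD, n = 3). The pooled SD within groups was 0.18, larger than every difference between these 4 means. Single members also varied more within groups than other genes did, with a median SD of 0.192 against 0.098 for the other 15720 tested genes. EL and ELKO libraries with the same number correlated positively in their deviations from group means over all tested genes. Within a group of 3 libraries these deviations depend on each other, so the outlying replicate 3 bears on the other pairs too. Differently numbered libraries were not compared, so a likeness by number is not shown. Within these pairs, the median member difference of ELKO minus EL was -0.091 for replicate 1 (7 members higher and 77 lower), 0.033 for replicate 2 (60 higher and 24 lower) and 0.035 for replicate 3 (64 higher and 20 lower).

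**Figure D3:**
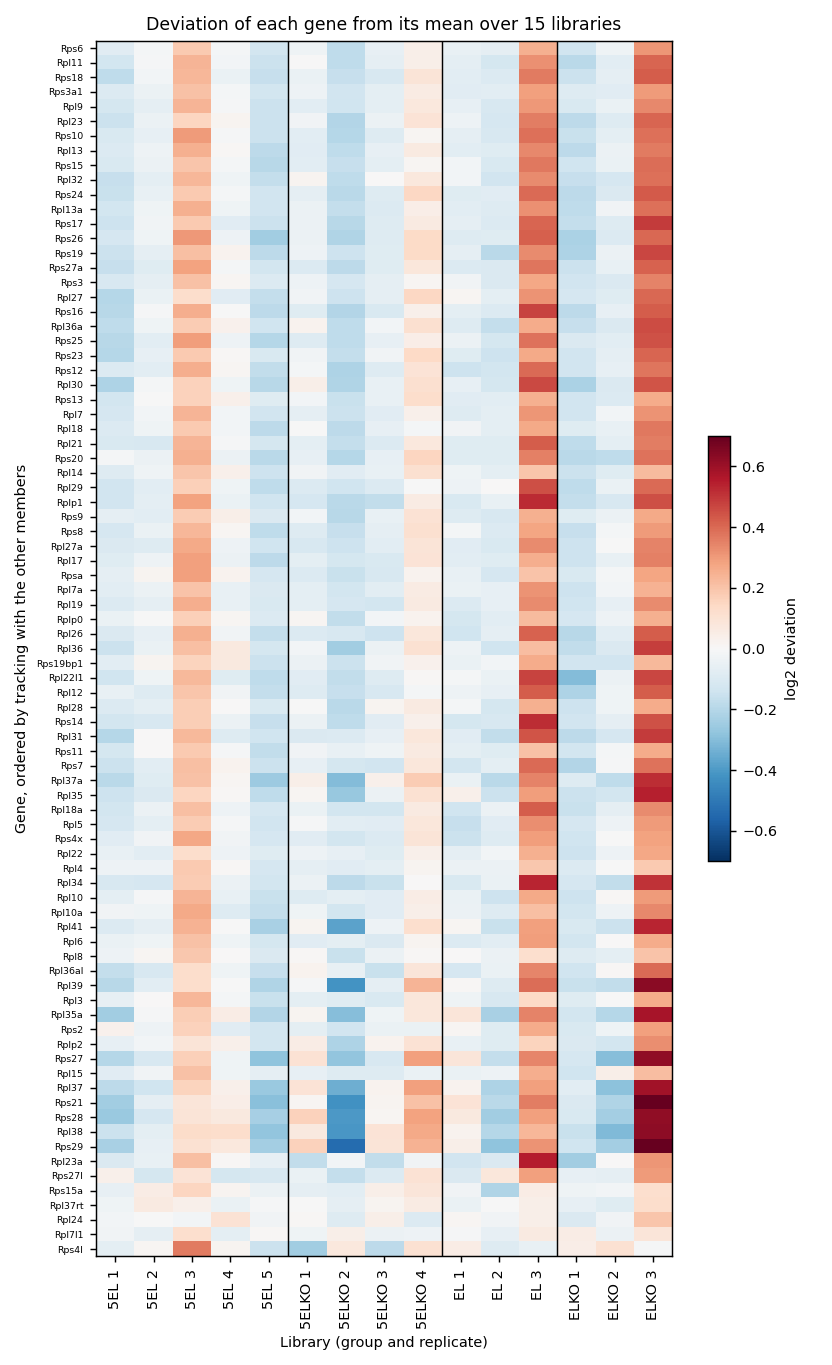
Deviation in log2 of 83 of the 84 tested genes (rows, ordered from those that follow the other members most closely at the top to those that follow them least) in the 15 libraries (columns, grouped by genotype). Red columns at 5EL 3, EL 3 and ELKO 3 run through nearly all rows, and Rps29 is lowest in 5ELKO 2, at -0.540.

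Most of the shortest members varied more within groups than the other members did. The 5 members with the largest SD within groups were Rps29 (0.33), Rps21 (0.30), Rpl38 (0.30), Rps28 (0.29) and Rps27 (0.29), which are among the 6 tested members whose mRNA is at most 400 bases long. The remaining one of the 6 is Rpl36, with an SD of 0.208. Some longer members exceeded it, such as Rpl37 (0.280, 835 bases) and Rpl39 (0.278, 612 bases). Rps29 (chr12:69157722-69159186, minus strand), a zinc-binding protein of the small subunit head, was at 9.91, 10.08, 10.24, 10.21 and 9.90 in 5EL. It was at 10.30, 9.60, 10.23 and 10.38 in 5ELKO, at 10.18, 9.86 and 10.46 in EL, and at 9.999, 9.90 and 10.84 in ELKO. ELKO replicate 3 was the highest and 5ELKO replicate 2 the lowest of the 15. The median deviation of these 6 members was 0.623 in ELKO replicate 3 and 0.302 in EL replicate 3. It was -0.402 in 5ELKO replicate 2 and 0.254 in 5ELKO replicate 4. The 37 members with mRNAs over 800 bases had medians of 0.311 and 0.290 in ELKO and EL replicate 3, -0.154 in 5ELKO replicate 2 and 0.059 in 5ELKO replicate 4. ELKO replicate 3 was above EL replicate 3 in both sets, and the gap was wider among the short than among the long members. Sequence shared with other genes was set beside this too. The 15 members with under 10% shared words had medians of 0.271 in ELKO replicate 3 and 0.259 in EL replicate 3, and the 35 with over 50% had 0.368 and 0.315.

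Other mRNAs were compared by length. The median mRNA length was 767.5 bases for the tested members and 2804 bases for the 15205 other tested genes with a length. In EL replicate 3, the median deviation of the other genes was 0.061 up to 600 bases, 0.120 at 600 to 1000 bases and -0.172 above 6000 bases. The corresponding medians were 0.066, 0.099 and -0.139 in ELKO replicate 3, 0.041, 0.065 and -0.093 in 5EL replicate 3, and -0.047, -0.067 and 0.106 in ELKO replicate 1. The 368 shortest genes lay closer to 0 than the next bin in these 4 libraries. The shortest members deviated more than the longer ones in ELKO replicate 3. The length bins were not matched for level, and low values are drawn together on this scale, so these sets are not directly comparable. The 243 other genes with mRNAs of at most 1000 bases and a mean level of at least 9 had a median of 0.312 in EL replicate 3, where the members had 0.311, and of 0.255 in ELKO replicate 3, where the members had 0.372. With each library's trend on mRNA length removed, the members' medians were 0.284 in ELKO replicate 3, 0.199 in EL replicate 3 and 0.143 in 5EL replicate 3. This trend was fitted on the other tested genes of all levels and was not matched for level either. GC content moved less: over 5 equal bins of GC content the median deviation stayed between -0.037 and 0.025 in all libraries.

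**Figure D4:**
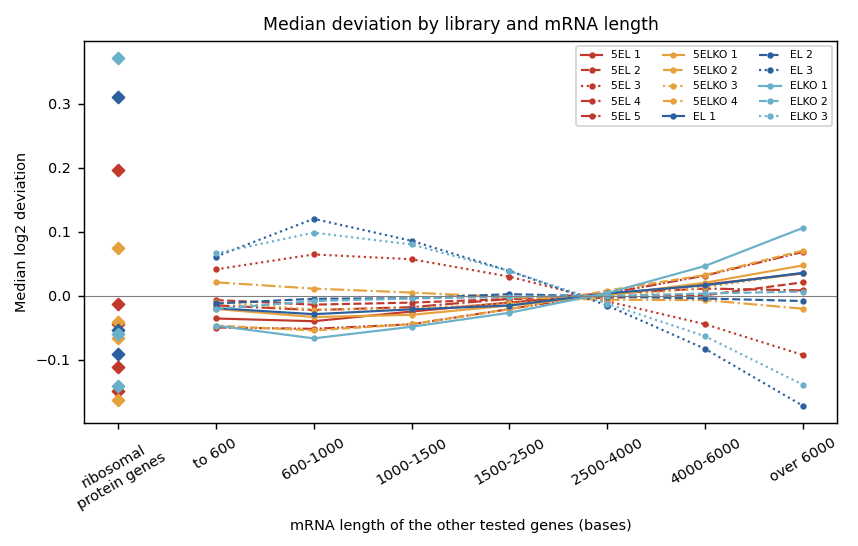
Median log2 deviation (vertical axis) of the other tested genes in 7 bins of mRNA length in bases (horizontal axis, lines, 1 per library, coloured by group) beside the median of the ribosomal protein genes (diamonds, left). The dotted lines of EL 3, ELKO 3 and 5EL 3 slope from 0.120, 0.099 and 0.065 at 600 to 1000 bases down to -0.172, -0.139 and -0.093 above 6000 bases, and their diamonds are the 3 highest.

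Lists of other translation genes had the following values in the same libraries. The 76 mitochondrial ribosomal proteins (Mrpl and Mrps symbols) had mean deviations of 0.190, 0.256 and 0.079 in ELKO, EL and 5EL replicate 3. The 41 tested factors of translation initiation and elongation had 0.090, 0.091 and 0.057. The 65 tested genes of ribosome biogenesis had 0.050, 0.044 and 0.035, and the 29 tested regulators of mTORC1, TOP mRNAs and eIF2 had -0.008, -0.010 and -0.023. Outside translation, mt-Co1, a mitochondrially encoded subunit of cytochrome c oxidase, was highest in EL replicate 3 (18.98), followed by ELKO replicate 3 (18.74), 5EL replicate 3 (18.67) and 5ELKO replicate 4 (18.64). The 86 tested nuclear genes of the respiratory chain, a list added after the values were seen, had mean deviations of 0.304, 0.359 and 0.087 in ELKO, EL and 5EL replicate 3.

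Markers of other cells had other orders over the libraries. Erythroid genes were raised in EL replicate 3 (mean deviation 1.70) and low in ELKO replicate 3 (-0.45) and 5EL replicate 3 (-0.26). Choroid plexus genes were at -0.51, -0.59 and -0.10 in ELKO, EL and 5EL replicate 3, and highest in ELKO replicate 2 (2.05), where the members' median was -0.060. Oligodendrocyte genes were at 0.25 in ELKO replicate 3 and 0.22 in EL replicate 3, but at -0.07 in 5EL replicate 3. Thalamic neuron genes were at 0.06, 0.04 and -0.06, and microglial genes at -0.04, -0.04 and 0.09. Their part in the members' levels was not tested.

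The genotype comparisons called none of the members. Group differences were fitted with limma over all tested genes, 15743 genes in the 9 libraries of 5EL and 5ELKO, and 15804 genes in all 15 libraries for the other contrasts. For 5ELKO against 5EL, the comparison of the study, 0 of 84 members had a nominal p under 0.05, where 2.49% of all genes did. The median member difference was -0.036, against 0.002 for all genes, with 18 members above and 66 below 0. Member differences ran from -0.116 to 0.105 with a median standard error of 0.074. Their 95% intervals lay within -0.33 to 0.37 taken over all members. The smallest nominal p was 0.142 and the smallest adjusted p 0.999 (limma with Benjamini-Hochberg adjustment). None passed the study's rule, which adds a change of over 1.2-fold and which 0.254% of genes passed here. The study applied this rule to a count model with a further 5ELKO library, so its gene list and the calls here are not directly comparable. The 5EL and 5ELKO values of every member overlapped, while 0.603% of all genes were higher and 0.457% lower in 5ELKO without overlap. Without 5EL replicate 3 the median was 0.025, the opposite sign.

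Rpsa (chr9:120127689-120132369, plus strand), the small subunit protein also known as the laminin receptor, had the smallest p in this comparison. It was at 12.66, 12.75, 13.01, 12.75 and 12.61 in 5EL and at 12.63, 12.57, 12.61 and 12.75 in 5ELKO. The groups overlapped, and 5EL replicate 3 was the highest of these libraries. The difference was -0.12 (standard error 0.07, 95% interval -0.28 to 0.04, nominal limma p = 0.142, exact permutation test, two-sided, p = 0.238, where 5 against 4 allow no less than 0.00794). Rpl23a, at the exit of the peptide tunnel, differed by -0.10 (95% interval -0.24 to 0.04), and Rpl15 by -0.07 (-0.19 to 0.05). With the RNA integrity number as a covariate, Rpl23a (-0.17, standard error 0.06) and Rps4l (-0.22, standard error 0.10) had a nominal p under 0.05 in limma, with adjusted p-values of 0.999. These are 2.38% of the members, where 2.87% of all genes had such a p in the same fit. In the study's supplement the integrity numbers reached lower in 5ELKO than in 5EL, so this covariate is partly tied to genotype. The supplement also lists a further 5ELKO library. Integrity numbers were joined to libraries by group and replicate number, and the labels do not state that this numbering is the supplement's. On the other side, Rps28 was at 9.51, 9.65, 9.86, 9.84 and 9.53 in 5EL and at 9.93, 9.37, 9.78 and 10.05 in 5ELKO. Its difference was 0.11 (95% interval -0.16 to 0.37), and 5ELKO replicate 2 was the lowest library of both groups. Rpl37 differed by 0.10 (-0.15 to 0.34). Without 5ELKO replicate 2 the 3 members Rps29 (0.23), Rps28 (0.24) and Rpl37 (0.21) had a nominal p under 0.05, with adjusted limma p-values of 0.9996. They are 3.57% of the members, where 2.49% of all genes had such a p in that fit.

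Deletion of Lilrb4a without 5xFAD was compared in ELKO against EL. None of 84 members had a nominal p under 0.05, where 2.35% of all genes did and 0.538% with a change of over 1.2-fold, and the smallest nominal p was 0.283. No member separated the groups without overlap, as 2.06% of all genes did when higher and 2.53% when lower in ELKO. The median member difference was 0.001, with 43 members above and 41 below 0, and differences ran from -0.09 to 0.08. With 3 libraries a group the median standard error was 0.139 and the 95% intervals reached from -0.45 to 0.58. The median was 0.133 without EL replicate 3, -0.156 without ELKO replicate 3 and 0.096 without ELKO replicate 1, the library with mouse Apoe. Rps15a was at 11.12, 10.94 and 11.20 in EL and at 11.12, 11.12 and 11.26 in ELKO. This difference of 0.08 (95% interval -0.08 to 0.24) had the smallest p, and the exact permutation p was 0.5, where 3 against 3 cannot go under 0.1. Rps4l differed by 0.08 and Rps19bp1 by -0.08 (-0.31 to 0.15).

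The effect of 5xFAD with intact Lilrb4a was compared in 5EL against EL. No member of 84 had a nominal p under 0.05, while 7.70% of all genes did, and 2.41% with a change of over 1.2-fold. All members overlapped between the groups, where 1.68% of genes were higher and 1.59% lower in 5EL without overlap. The median member difference was -0.072, against 0.001 for all genes, with 6 members above and 78 below 0. The smallest nominal p was 0.148, for Rpl29 (chr9:106429454-106431568, plus strand), a large subunit protein. Rpl29 was at 10.70, 10.76, 11.001, 10.81 and 10.66 in 5EL and at 10.80, 10.84 and 11.28 in EL. EL replicate 3 was the highest, and the groups overlapped. Its difference was -0.19 (95% interval -0.45 to 0.08), and it was -0.03 without EL replicate 3. Rpl27 differed by -0.16 (-0.41 to 0.09), and Rps15a by 0.08 (-0.06 to 0.23). Without EL replicate 3 the median of the members was 0.052, and without the 3 libraries 5EL 3, EL 3 and ELKO 3 it was -0.003.

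In mice without Lilrb4a, 5xFAD was compared in 5ELKO against ELKO. Again 0 of 84 members had a nominal p under 0.05, against 2.37% of all genes and 0.399% with a change of over 1.2-fold. Again no member lay apart, where 1.78% of genes were higher and 1.61% lower in 5ELKO without overlap. The median difference was -0.103, with 1 member above and 83 below 0, where 50.3% of all genes were below 0. The smallest nominal p, 0.214, was for Rpsa, which differed by -0.14 (95% interval -0.36 to 0.09, exact permutation p = 0.286), followed by Rps2, at -0.12 (-0.33 to 0.08). ELKO held Rpsa at 12.62, 12.71 and 13.002, and all 4 of the 5ELKO libraries lay between 12.57 and 12.75. The nearly uniform sign rests on ELKO replicate 3. Without that library the median was 0.049. Without ELKO replicate 1 it was -0.200, and Rpl15 (-0.20, standard error 0.09) then had a nominal p under 0.05 in limma, as did 5.02% of all genes. These 4 contrasts share groups, so their values are not independent of each other.

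The interaction, the effect of deletion with 5xFAD minus the effect without it, also called 0 of 84 members at a nominal p under 0.05, where 2.73% of all genes were called. The median was -0.027, with 27 members above and 57 below 0, and the 95% intervals reached from -0.66 to 0.67. The smallest nominal p was 0.263, for Rps4l, at -0.18 (-0.50 to 0.15), followed by Rps15a at -0.11 (-0.32 to 0.10). Over all genes, limma with Benjamini-Hochberg adjustment called 0.0191% (3 genes, no member) in 5ELKO against 5EL and 0 genes in the other contrasts. When each library was recentred to the same mean of the 84 members, which removes the shared movement, 0 members had a nominal p under 0.05 in each of the 5 contrasts. The same count of 0 was found in each contrast without the 3 libraries 5EL 3, EL 3 and ELKO 3, where the medians were 0.025, -0.030, -0.003, 0.049 and 0.057 in the order above.

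**Figure D5:**
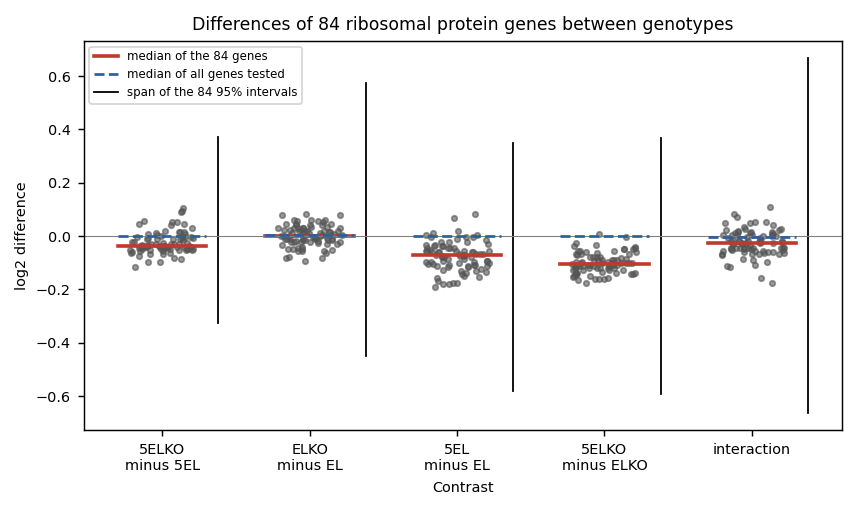
Log2 differences of the 84 tested genes (grey points, vertical axis) in the 5 contrasts (horizontal axis), with their median (red line), the median of all genes tested (blue dashed line) and the span of the members' 95% intervals (black bars). Points lie between -0.19 and 0.11 in all contrasts, and the black bars reach from -0.66 to 0.67.

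The lists of related genes gave few calls at a nominal limma p under 0.05 and no adjusted ones in these contrasts. Over all genes, the share with such a p was 2.49% in 5ELKO against 5EL and 2.35% in ELKO against EL. It was 7.70% in 5EL against EL, 2.37% in 5ELKO against ELKO and 2.73% for the interaction. In 5EL against EL, each of these lists was called at a smaller share than all genes. The genes named below are therefore a description. Among the 65 tested genes of ribosome biogenesis, Gar1, a protein of the snoRNPs that guide pseudouridylation, was higher in 5ELKO than in 5EL (0.14). Gnl3, nucleostemin, was lower in ELKO than in EL (-0.19) and its interaction was positive (0.23). Bop1, a factor of large subunit maturation, was lower in 5EL than in EL (-0.15). Of the 41 translation factors, 1 was called, Eif4b, which helps the helicase eIF4A and was higher in 5EL than in EL (0.14). Among 29 regulators, Eif2ak2, the kinase PKR, was higher in 5EL than in EL (0.22). Of the 76 mitochondrial ribosomal proteins, 2 were lower in 5ELKO than in 5EL (Mrps9 and Mrpl12), 2 were lower in ELKO than in EL (Mrps9 and Mrps18b) and 3 were lower in 5EL than in EL (Mrpl34, Mrps18b and Mrpl49). Their adjusted p-values were at least 0.63. The median difference in 5EL against EL and in 5ELKO against ELKO was -0.092 and -0.085 for the mitochondrial ribosomal proteins. It was -0.135 and -0.107 for the nuclear respiratory chain genes, where the cytosolic members had -0.072 and -0.103. The translation factors had -0.012 and -0.035, the ribosome biogenesis genes -0.031 and -0.013, and the regulators 0.003 and 0.026. These list medians include replicate 3 of 5EL, EL and ELKO and are not given without them. The respiratory chain list had mean deviations of 0.359 in EL replicate 3 and 0.304 in ELKO replicate 3. In the other EL and ELKO libraries it lay between -0.118 and 0.003. The mitochondrial ribosomal proteins had 0.256 and 0.190, and lay between -0.082 and 0.001 in those other libraries.

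Marker lists of other cells moved with some of these contrasts, while the members had no call. Over all genes, in either direction, 2.49% had a nominal p under 0.05 in 5ELKO against 5EL and 2.35% in ELKO against EL. The share was 7.70% in 5EL against EL and 2.37% in 5ELKO against ELKO. The marker values include replicate 3 of 5EL, EL and ELKO. Of 20 tested hepatocyte genes, 18 were higher at a nominal p under 0.05 in 5ELKO than in 5EL (median difference 0.287) and 17 were higher in 5ELKO than in ELKO (0.276). The 3 genes that passed the adjusted test in 5ELKO against 5EL, Alb, Bhmt and Serpina3k, are among them. All 3 tested erythroid genes were lower in ELKO than in EL (median -1.52), and 2 of the 3 were lower in 5EL than in EL. Of 12 microglial genes, 7 were higher in 5EL than in EL (median 0.317) and 3 in 5ELKO than in ELKO (0.216). Of 10 thalamic neuron genes, 4 were lower in 5EL than in EL (median -0.197). The 12 choroid plexus genes had a median of 0.727 in ELKO against EL and -0.631 in 5ELKO against ELKO, with no nominal call in either. The part of these cells in the members' differences was not tested.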

How the data were processed

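Per the study's methods and the submitters' processing notes, reads were trimmed (Trimmomatic 0.39) and mapped with HISAT2 2.2.1 on GRCm38. Pairs were then assigned to gene names by exon, regardless of strand, with featureCounts 2.0.3. The authors deposited log2 values, 29659 symbols per library, from -2.27 to 18.98. The transform and the annotation release are not given in the sources used here, and low genes are drawn together, which understates their changes. Because these are not counts, no count model was run. Groups and replicates came from the sample titles. A further 5ELKO library was not analysed here.

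Members and gene lists were chosen with earlier results of these data known. Genes at a linear value of 10 or more in 4 of 9 or 3 of 15 libraries were fitted with limma 3.58.1 (R 4.3.3, trend), p-values were adjusted by Benjamini-Hochberg over all tested genes, and the fit was tested on simulated data. p-values measure the spread between these libraries. Named members were the 5 smallest p in each direction and contrast, members with no overlap of 5ELKO and 5EL, paralog pairs, the 5 highest and lowest levels per kilobase, Rps19bp1, the 3 that follow the others best and the 5 with the largest SD within groups; the text gives part of them. Lengths, overlaps and shared 100-base words came from GENCODE M21, in which 91 of 91 members matched, with 1 principal transcript a gene. Same-numbered EL and ELKO libraries correlated at 0.453, 0.325 and 0.742 in their deviations from group means, though the labels do not say what they share. Differently numbered libraries were not compared. The main fits and the permutation tests were unpaired. The replicate block, set by number over every group in a fit, left 0 members called. Of 105 pairs of libraries, 0 held identical values. Alternatives were the filter, the trend, robust estimation, recentring, the block, each library left out, libraries high in choroid plexus genes left out, a choroid plexus covariate, and RNA integrity. A lowess with a span of 0.3 gave the length trend. Figures used matplotlib. Single values of 1 member, and 1 list of related genes, are not reported here.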

Additional observations from a re-analysis of the deposited data

Results flagged for a closer look

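In 88 groups of 4 or 5 libraries (the member mean and 43 named members in 5EL and 5ELKO), 9 had a library far from the rest, where chance gives about 1 in 20. The distance is the gap to the nearest library divided by the range of the group. In 5EL, replicate 3 was high for Rpl15 (0.809), Rpl22 (0.778), Rpl34 (0.717), Rpl7a (0.798), Rplp1 (0.787) and Rps4x (0.755). Rplp1, for example, was 12.50 there and 12.08 to 12.17 in the other 4 libraries. These 6 share a library and are not independent. Rpl24 was high in 5EL replicate 4 (0.837), at 3.56 against 3.44 to 3.46. In 5ELKO, Rpl10 was high in replicate 4 (0.855), at 11.95 against 11.81 to 11.83, and Rpl7l1 was high in replicate 2 (0.854), at 9.82 against 9.74 to 9.75, where the median deviation of the members was the lowest of all libraries (-0.163). No named member had an interaction with a nominal p under 0.05.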

How the results depend on the processing

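The counts of members at a nominal p under 0.05 and the median differences were recomputed under filters on low values (none, and a linear value of 50), without the variance trend, with robust estimation, recentring, all 15 libraries in the fit of 5ELKO minus 5EL, the choroid plexus changes, the replicate block and each library left out. The count of 0 stayed in the 5 contrasts under these and under the alternatives chosen after seeing the data (without 5EL 3, EL 3 and ELKO 3, length trend removed, equal member means), apart from 2 for 5ELKO minus 5EL with the RNA integrity number as a covariate and apart from single libraries left out. Outside single libraries left out, the medians moved by less than the pooled SD within groups (0.179), but 7 of 57 changed sign. Without 5EL 3, EL 3 and ELKO 3 these were 0.025 for 5ELKO minus 5EL, -0.030 for ELKO minus EL, 0.049 for 5ELKO minus ELKO and 0.057 for the interaction. With equal medians of all genes ELKO minus EL was -0.015, and with equal member means 2 medians near 0 changed sign. The replicate block gave medians of -0.065, 0.001, -0.055, -0.118 and -0.058 for 5ELKO minus 5EL, ELKO minus EL, 5EL minus EL, 5ELKO minus ELKO and the interaction. The block also grouped same-numbered 5EL and 5ELKO libraries, whose deviations from group means correlated at only -0.067, -0.244, -0.026 and 0.143.

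Leaving out 1 library at a time gave counts of 0 to 3 for 5ELKO minus 5EL (3 without 5ELKO replicate 2) and of 0 to 1 for 5ELKO minus ELKO (1 without ELKO replicate 1). The medians then ran from -0.071 to 0.025 for 5ELKO minus 5EL, -0.156 to 0.133 for ELKO minus EL, -0.147 to 0.052 for 5EL minus EL, -0.200 to 0.049 for 5ELKO minus ELKO and -0.164 to 0.131 for the interaction. Single members that changed sign ran from -0.196 to 0.0205 (Rps19bp1) and -0.253 to 0.0721 (Rpl29) in ELKO minus EL, -0.0157 to 0.113 (Rps4l) in 5EL minus EL, -0.0311 to 0.0725 (Rpl37rt) in 5ELKO minus ELKO, and -0.0740 to 0.384 (Rps27) and -0.0446 to 0.238 (Rpl27) in the interaction. Without 5EL 3, EL 3 and ELKO 3, Rps4l was -0.0277 in 5EL minus EL. Without 5EL 1 and ELKO 2, and with the choroid plexus score as a covariate, Rpl37rt was -0.0311 and -0.0175 in 5ELKO minus ELKO, Rps27 -0.100 and -0.107 and Rpl27 -0.0355 and -0.0522 in the interaction; the cause was not tested. Depth per gene is unknown, and groups of 3 to 5 libraries limit the intervals.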
